A study of Mus musculus with 6 samples.

Results

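The genes described here encode the nuclear pore complex and the soluble receptors that carry cargo through it. They were the rows whose symbol begins with Nup, Kpna, Kpnb, Ipo or Xpo followed by a digit, together with Tnpo1, Tnpo2, Tnpo3, Ran, Rangap1, Ranbp1, Ranbp2, Cse1l and Tpr. This rule gave 49 genes of 55549 rows, 23 of them pore subunits and 26 transport receptors or members of the Ran cycle. One further row, Kpna2-ps, was left out as a pseudogene and held 0 to 7.18 estimated counts per library. RNA was sequenced from whole mouse embryos at the early 2-cell stage, in 3 libraries of control embryos and 3 libraries of embryos kept in medium with 40 uM ethylparaben (EtP), a paraben ester used as a preservative. Exposure began 4 h after fertilization, at the zygote stage, and by the series' design text the larger part of the exposed embryos arrested as early 2-cell embryos. Neither the mouse strain nor the number of embryos per library is given in the labels, nor whether control medium held a solvent, whether the 3 libraries of a group are separate cultures, or at which hour each group was collected. The p-values therefore rest on library-to-library spread, part or all of which may be technical, and exposure and embryo age at collection cannot be told apart.

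The nuclear pore is a ring of repeated subcomplexes set in the nuclear envelope. An outer ring, or Y complex, and an inner ring form its scaffold, proteins with phenylalanine-glycine repeats fill its channel, filaments extend into the cytoplasm and a basket extends into the nucleus. Importin alpha, encoded by the Kpna genes, binds classical nuclear localization signals and is carried in by importin beta, whose relatives carry other cargo directly. The small GTPase Ran releases import cargo in the nucleus and is needed for export, and the receptor encoded by Cse1l returns importin alpha to the cytoplasm. In early mouse embryos the egg supplies the first pore and transport transcripts, and importin alpha proteins carry transcription and chromatin factors into the nuclei in which the embryonic genome becomes active.

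Promoter sequence was drawn from RefSeq (build GRCm38.p6, the assembly of mm10), which held 46 promoters for 39 of the 49 genes. For the 4 genes below, the stretch from 250 to 51 bases before the RefSeq start is printed, since among genes with a promoter in the table whose stretch overlaps no annotated exon they gave some of the largest differences between the groups, Kpna2, Kpna7 and Nup107 upward and Kpna4 downward. Each reads 5′ to 3′ on the strand of the gene, and capitals mark a match to one of the motifs listed after them. The stretches lie at chr11:106999576-106999775 for Kpna2, chr5:145009687-145009886 for Kpna7, chr10:117792756-117792955 for Nup107 and chr3:69127143-69127342 for Kpna4, all on the minus strand.
Kpna2: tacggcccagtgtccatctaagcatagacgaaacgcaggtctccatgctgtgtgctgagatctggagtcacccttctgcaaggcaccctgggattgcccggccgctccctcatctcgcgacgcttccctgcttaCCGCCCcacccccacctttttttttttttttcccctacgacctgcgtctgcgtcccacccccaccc
Kpna7: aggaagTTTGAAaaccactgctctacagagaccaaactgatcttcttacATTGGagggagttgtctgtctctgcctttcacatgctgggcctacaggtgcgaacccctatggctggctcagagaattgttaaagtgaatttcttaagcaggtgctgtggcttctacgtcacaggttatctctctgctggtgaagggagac
Nup107: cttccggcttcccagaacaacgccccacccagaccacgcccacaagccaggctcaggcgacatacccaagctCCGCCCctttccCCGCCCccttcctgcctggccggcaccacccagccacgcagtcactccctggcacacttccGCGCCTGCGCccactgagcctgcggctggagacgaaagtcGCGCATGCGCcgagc
Kpna4: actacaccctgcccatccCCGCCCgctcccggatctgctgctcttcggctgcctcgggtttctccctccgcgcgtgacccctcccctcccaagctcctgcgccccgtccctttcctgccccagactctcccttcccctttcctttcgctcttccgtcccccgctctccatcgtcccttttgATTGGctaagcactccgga
Both strands of every RefSeq promoter stretch of this length were searched, 32851 in all. The GC box GGGCGG was found in 24.6% of them and in 25 of the 46 from pore and transport genes, and the CCAAT box in 28.4% and in 19 of 46. A TATAAA element was found in 9.14% and in 3 of 46, the E box CACGTG in 4.34% and in 7 of 46, and the NRF1 palindrome in 2.24% and in 4 of 46, those of Nup107, Nup50, Ran and Xpo5. The cyclic AMP element TGACGTCA was found in 0.828% and in 1 of 46, and TTTGAA, the core of the cell cycle homology region, in 13.6% and in 8 of 46. Motifs that overlap in a stretch were each counted. Of the 4 printed stretches, those of Kpna2, Nup107 and Kpna4 hold the GC box, those of Kpna7 and Kpna4 hold the CCAAT box, that of Kpna7 also holds TTTGAA, and that of Nup107 also holds the NRF1 palindrome. The Kpna7 stretch has 48.0% G and C, against 59.5% for Kpna2, 65.5% for Kpna4 and 69.5% for Nup107. It lies inside the span that GENCODE M21 gives for Kpna7, so its RefSeq start is not the outermost start in that annotation. Those of Kpna2, Nup107 and Kpna4 lie outside the spans of their genes. A match is a string of letters and does not show that a factor binds there.

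Library totals ranged from 11173295 to 14737152 estimated counts, and at least 1 count was found for 25861 to 26004 genes in control and 19244 to 19613 genes in EtP libraries. Egg and early embryo markers (10 genes) summed to 9280 to 13859 CPM (counts scaled to library size) in control and 27399 to 30899 CPM in EtP libraries, and transient 2-cell markers (8 genes) to 479 to 636 CPM and 22.1 to 27.6 CPM. Cumulus and granulosa markers (10 genes) summed to 17.3 to 42.5 CPM and 17.4 to 19.2 CPM, with Ptx3 and Amh at 0, and sperm markers (6 genes) to 5.84 to 12.9 CPM and 2.9 to 3.43 CPM, with Tnp1 at 0. The egg and 2-cell marker sums thus separated the groups in the same libraries as every result below, and their part in those results was not tested. In pooled embryo RNA, fewer cells with a transcript and less of it per cell cannot be told apart. Within the control group, replicate 1 had the lowest CPM for 34 of the 49 genes (69.4%), where it was the lowest for 41.5% of all tested genes. Within the EtP group, replicate 2 was the lowest for 28 of 49 (57.1%), against 36.6% of all tested genes.

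All 49 genes were detected at levels that could be tested, and 14 of them differed between EtP and control embryos. The importin alpha gene Kpna2, the outer ring gene Nup107, the inner ring gene Nup35, the egg importin alpha gene Kpna7 and the filament gene Nup88 rose more than 2-fold. Tnpo1, Ipo7, Xpo5 and Nup85 rose by less. The importin alpha genes Kpna1 and Kpna4 and the central channel relative Nup62cl fell to 5 or fewer counts over the EtP group, and Cse1l and Tnpo3 fell by less. In numbers, 9 of 49 were higher (18.4%) and 5 lower (10.2%), where 12.5% of the 14373 tested genes were higher and 18.1% lower (edgeR, quasi-likelihood; the threshold was a Benjamini-Hochberg adjusted p of 0.05). Their median log2 fold change was 0.15, against -0.19 for all tested genes, and 27 of the 49 estimates were positive. The mean was -0.13, of the opposite sign to the median, with single values from -6.85 to 2.01. The lowest, of Nup62cl at 0 counts in EtP, depends on the prior count and enters the mean but does not set the median. The 3 control and 3 EtP libraries did not overlap for 13 genes higher in EtP (26.5%) and 8 lower (16.3%), against 19.0% and 27.9% of all tested genes.

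The pore and the receptors were also counted apart. Of 23 pore genes, 4 were higher (17.4%) and 1 lower (4.35%), and their median log2 fold change was 0.35. Of 26 receptor and Ran cycle genes, 5 were higher (19.2%) and 4 lower (15.4%), and theirs was -0.21. All tested genes gave 12.5% higher and 18.1% lower. Neither the difference between these counts nor that between the medians was tested. Without control replicate 1, 14 of the 49 genes were higher and 7 lower. Leaving out EtP replicate 1 instead gave 5 higher and 3 lower. The shares of all tested genes called in these refits are not given here. Whether the changes in count are particular to the 49 genes was not tested. RNA composition differed between the groups, so the counts depend on the scaling. With library size alone in place of TMM (trimmed mean of M-values) scaling, the median of all tested genes moved by -0.73 on the log2 scale to -0.92, 3.79% of tested genes were higher and 53.0% lower, and 2 of the 49 genes were higher and 21 lower. Kpna2 (log2 fold change 1.28, adjusted p = 0.000373) and Nup35 (0.57, adjusted p = 0.0342) were the 2 still higher, and all 5 lower calls held. The plot of fold changes by role shows the 49 genes under TMM scaling.

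**Figure D1:**
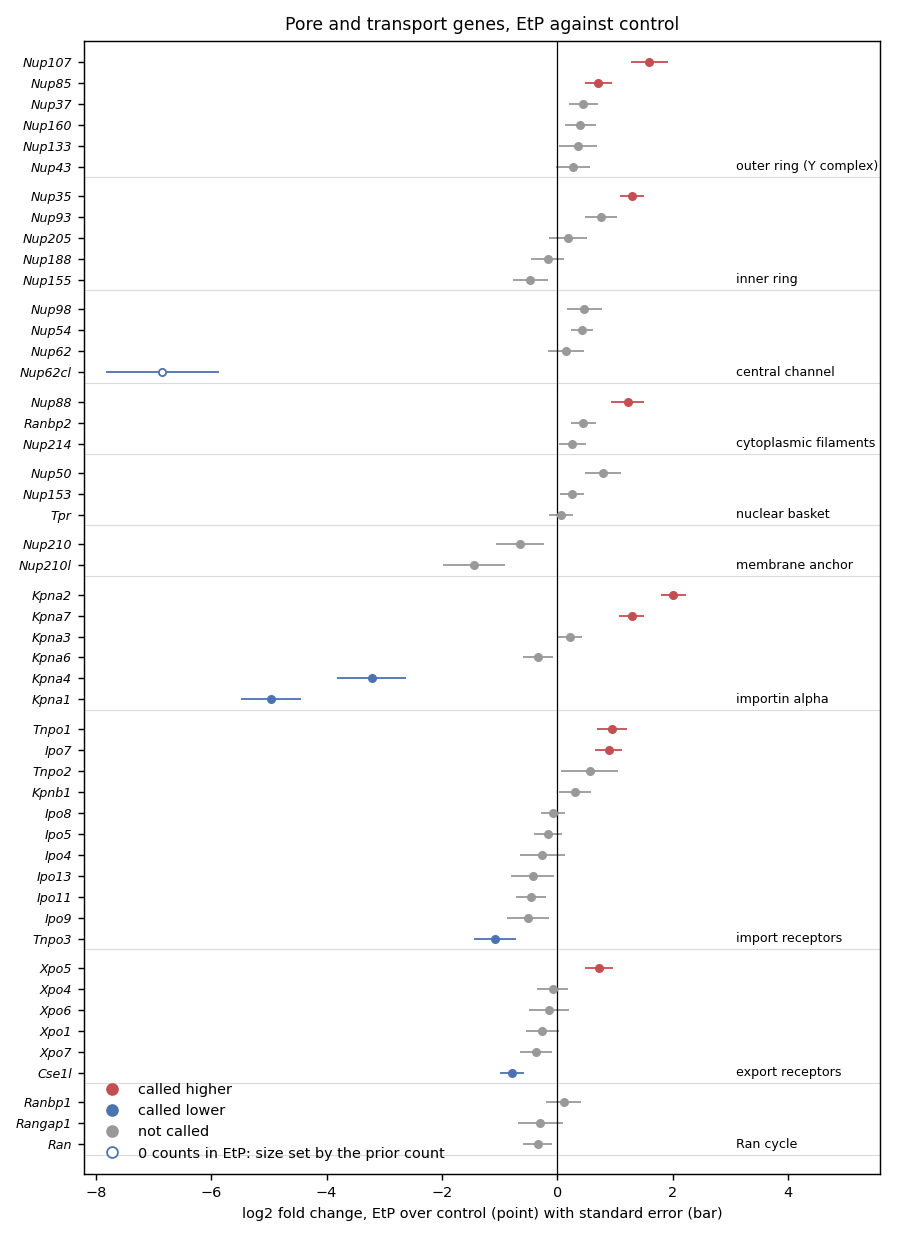
Log2 fold change of EtP over control for each of the 49 genes (points, with standard errors as bars), grouped by role and ordered by size within each role. The 6 genes grouped as outer ring lie above 0 under TMM scaling (Sec13 at -0.29 and Ahctf1 at -0.44, outside the rule, are not drawn). The importin alpha genes spread from -4.96 for Kpna1 to 2.01 for Kpna2. The open point, Nup62cl, had 0 counts in EtP and its size depends on the prior count.

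Nup98 was grouped with the channel genes, and 6 other genes of the rule were grouped as the outer ring. Their log2 fold changes were positive, from 0.27 for Nup43 to 1.59 for Nup107, and 2 of 6 passed the test. Both were higher (33.3%), where 12.5% of all tested genes were higher and 18.1% lower. The Y complex subunits outside the rule did not share one sign: Seh1l gave 0.54 ± 0.21, Sec13 -0.29 ± 0.20 and Ahctf1 -0.44 ± 0.31, and none passed the test. With library size alone, of the 6 only Nup107 kept a positive estimate. Nup107, a core subunit of the Y complex, stood at 30.8, 60.6 and 77.6 CPM in the control libraries and at 172, 139 and 199 CPM in the EtP libraries. Each EtP library lay above every control library, and control replicate 1 was the lowest of all. The log2 fold change was 1.59 ± 0.32 (SE; adjusted p = 0.00425), or 3.02-fold, and 0.84 with library size alone (adjusted p = 0.0565). Nup85, another Y complex subunit, stood at 34.2, 40.5 and 47.7 CPM in control and at 58.8, 63.9 and 77.8 CPM in EtP. Its groups did not overlap, and its log2 fold change was 0.71 ± 0.23 (adjusted p = 0.0356). The Nup85 call was lost when control replicate 2 or any one EtP replicate was left out, and its estimate was -0.02 with library size alone. Nup37, a small Y complex subunit and the most abundant of the ring per length, stood at 209, 134 and 118 CPM in control and at 236, 190 and 203 CPM in EtP. Control replicate 1 lay within the range of the EtP libraries, and the test was not passed (log2 fold change 0.45 ± 0.25, adjusted p = 0.195). Without control replicate 1, both Nup37 (0.83, adjusted p = 0.00314) and Nup43 (0.76, adjusted p = 0.0128) were called higher. Nup160 gave 0.40 ± 0.27 and Nup133 0.35 ± 0.33, with neither passing the test.

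In the inner ring, 1 of 5 genes passed the test. Nup35, which ties the inner ring to the pore membrane, stood at 229, 170 and 179 CPM in control and at 506, 416 and 498 CPM in EtP. The lowest EtP library was above the highest control library. Its log2 fold change was 1.30 ± 0.21 (adjusted p = 0.0014), and the call held under each scaling tried and whichever single library was left out. Nup35 shares exon sequence with Dusp19 on the same strand, so some of its fragments may belong to that gene. Nup93, an inner ring hub, did not overlap between groups, with 57.1 ± 18.9 CPM against 96.6 ± 19.6 CPM in EtP embryos (SD, n = 3 each), but missed the threshold (log2 fold change 0.76 ± 0.28, adjusted p = 0.0659). It was called higher without control replicate 1 (adjusted p = 0.029) and under RLE scaling (adjusted p = 0.0357), but not under upper-quartile scaling (adjusted p = 0.0814). The large scaffold subunits Nup205, Nup188 and Nup155 gave log2 fold changes of 0.18, -0.17 and -0.47, and none passed the test.

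Among the channel genes, 3 had small positive estimates and Nup62cl was nearly lost. Nup54, a subunit of the channel trimer, was the most abundant of them per length over the 6 libraries and stood at 92.5, 90.6 and 86.5 CPM in control and at 127, 116 and 121 CPM in EtP. Its groups did not overlap, yet the test was not passed (log2 fold change 0.43 ± 0.19, adjusted p = 0.111). It was called higher without control replicate 1 (0.55, adjusted p = 0.0214). Nup98, a repeat protein that also acts in the nucleoplasm, gave 0.47 ± 0.30, and Nup62, the partner of Nup54, gave 0.15 ± 0.32, both with overlapping groups. Nup62cl, a relative of Nup62 on the X chromosome, had 15, 21 and 17 estimated counts in the control libraries and 0 in each EtP library. These 53 counts against 0 make it at least 10.9-fold lower, taking 3 counts over the EtP group as the most that a count of 0 allows (adjusted p = 0.00123). Counts for Nup62cl, Kpna1 and Kpna4 are given although their mean was below 5 CPM, and were chosen after their values were seen.

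On the cytoplasmic face 1 of 3 genes passed the test, as higher (33.3%), where 12.5% of all tested genes were higher and 18.1% lower. Nup88, which anchors Nup214, stood at 53.1, 107 and 123 CPM in control and at 228, 197 and 234 CPM in EtP. Every EtP library was higher than every control library, and control replicate 1 was again the lowest. The log2 fold change was 1.22 ± 0.29 (adjusted p = 0.0106), and 0.47 with library size alone (adjusted p = 0.219). Nup88 shares exon sequence with Rabep1 on the other strand, and reads of the pair cannot be separated without strand. Nup214, the most abundant of the filament genes per length, stood at 318, 412 and 527 CPM in control and at 551, 398 and 559 CPM in EtP, with overlapping groups (log2 fold change 0.26 ± 0.24, adjusted p = 0.442). Ranbp2, a SUMO ligase that binds Ran at the filaments, did not overlap between groups (15.1 ± 0.368 against 20.7 ± 1.85 CPM) but did not pass the test (0.45 ± 0.22, adjusted p = 0.136).

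None of the 3 basket genes and neither membrane anchor passed the edgeR test, where 12.5% of all tested genes were higher and 18.1% lower. At an unadjusted p below 0.05, 1 of the basket genes (Nup50) and 1 of the anchors (Nup210l) did. DESeq2 called Nup50 higher, and limma-voom called none of the 5. Nup153, which anchors the basket and is its most abundant transcript per length, stood at 81.4, 101 and 104 CPM in control and at 127, 112 and 102 CPM in EtP. The groups overlapped, with a log2 fold change of 0.25 ± 0.21. Nup50, a basket protein that helps to release importin alpha cargo, gave 0.79 ± 0.31 (adjusted p = 0.0781) without overlap between groups, and was called higher without control replicate 1 (0.59, adjusted p = 0.0229) or under RLE scaling (adjusted p = 0.0445). Tpr, the main filament of the basket, gave 0.07 ± 0.21, and -0.66 with library size alone (adjusted p = 0.0291). Nup210 and Nup210l, which span the pore membrane, were scarce. Nup210 stood at 1.5, 1.9 and 2.99 CPM in control and at 1.45, 1.1 and 1.49 CPM in EtP, so that each EtP library was just below the lowest control library, and the test was not passed (log2 fold change -0.65 ± 0.41, adjusted p = 0.253). Nup210l gave -1.45 ± 0.54 (adjusted p = 0.0633).

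The 6 importin alpha genes moved in opposite directions. Kpna2 and Kpna7 were higher (33.3%), Kpna1 and Kpna4 lower (33.3%), and Kpna3 and Kpna6 did not pass the test. Of all tested genes, 12.5% were higher and 18.1% lower. Kpna2, on chromosome 11 from 106988629 to 106999541, is the importin alpha gene known for high expression in eggs and embryonic stem cells. It stood at 819, 825 and 675 CPM in control and at 3634, 2750 and 2944 CPM in EtP. The lowest EtP library was far above the highest control library. The log2 fold change was 2.01 ± 0.22 (adjusted p = 0.000101), or 4.02-fold, and among all genes Kpna2 ranked 166 to 217 by TPM, the deposited level scaled for length and depth, in control and 42 to 55 in EtP libraries. Kpna7, on chromosome 5 from 144983519 to 145084030, encodes an importin alpha found mainly in eggs and early embryos. It stood at 204, 250 and 225 CPM in control and at 629, 435 and 593 CPM in EtP, again with no overlap. Its log2 fold change was 1.29 ± 0.22 (adjusted p = 0.00173), and 0.55 with library size alone (adjusted p = 0.0542). Kpna7 shares exon sequence with Arpc1a on the other strand.

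Kpna1 and Kpna4 fell to a few counts. Kpna1, on chromosome 16 from 35978750 to 36037131, encodes an importin alpha with a role in carrying STAT factors. It had 83, 123 and 66 estimated counts in the control libraries and 1, 3 and 1 in the EtP libraries. These sums of 272 and 5 counts give a level 33.6-fold lower in EtP, with an exact 95% counting interval of 14.2 to 104 (adjusted p = 8.73e-05). Kpna4, on chromosome 3 from 69067149 to 69127113, encodes an importin alpha used by NF-kappaB subunits. It had 30, 18 and 16 counts in control and 2, 1 and 1 in EtP, or 64 against 4 in all. Its level was 9.88-fold lower, the counting interval running from 3.68 to 37.4 (adjusted p = 0.00286). No EtP library reached the lowest control library for either gene, and both calls held under each scaling tried and whichever single library was left out. Such intervals cover counting error only, since PCR copies were not marked. Kpna3, a close relative of Kpna4, averaged 533 ± 26.1 CPM in control embryos and 621 ± 115 CPM in EtP embryos (log2 fold change 0.22 ± 0.21). Kpna6, whose maternal supply is needed for the earliest cleavages in mouse, stood at 40.5 ± 11.9 and 32.0 ± 3.42 CPM (-0.34 ± 0.26).

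**Figure D2:**
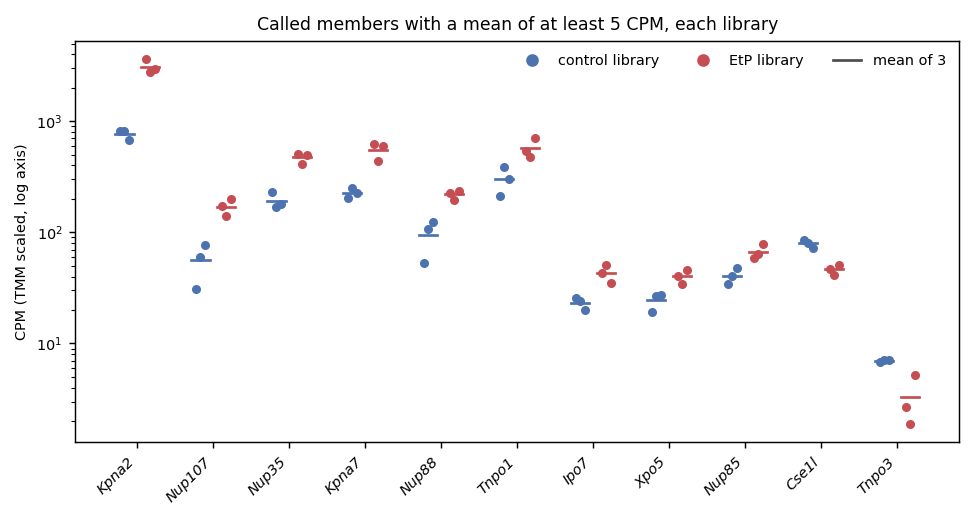
CPM (log axis) in each control and EtP library for the 11 genes that passed the test with a mean of at least 5 CPM, ordered by fold change, with horizontal lines at the mean of 3 libraries. No gene shows overlap between groups, and control replicate 1, the leftmost blue point, is the lowest control library for Nup107, Kpna7, Nup88, Tnpo1, Xpo5, Nup85 and Tnpo3.

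Shares of the importin alpha genes within a library do not depend on scaling between libraries, and TPM puts genes of different length on 1 scale. Kpna2 made up 66.6%, 62.9% and 58.3% of the summed importin alpha TPM in the control libraries and 87.2%, 88.4% and 85.0% in the EtP libraries. Kpna3 made up 17.8%, 17.2% and 21.9% in control and 4.11%, 3.87% and 5.35% in EtP. Kpna7, although higher in CPM, made up a smaller share, 13.0%, 16.6% and 16.4% in control and 8.20%, 7.27% and 9.18% in EtP. So Kpna2 gained where each of the others lost share, without overlap for any of the 6 genes. Kpna6 went from 2.84% ± 0.487 to 0.448% ± 0.0102, Kpna1 from 0.264% ± 0.0542 to 0.00244% ± 0.00272, and Kpna4 from 0.0219% ± 0.00574 to 0.000522% ± 0.000231 (SD, n = 3 each). Each gave an exact two-sided permutation p of 0.1, the smallest that 3 against 3 allows, with an adjusted p of 0.1 over the 6 genes. From counts without length, the Kpna2 share went from 48.9% ± 3.88 to 72.1% ± 2.85 and that of Kpna3 from 33.8% ± 2.98 to 14.4% ± 1.82, while that of Kpna7 overlapped between groups (14.3% ± 1.2 and 12.8% ± 1.07, exact permutation p = 0.2).

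**Figure D3:**
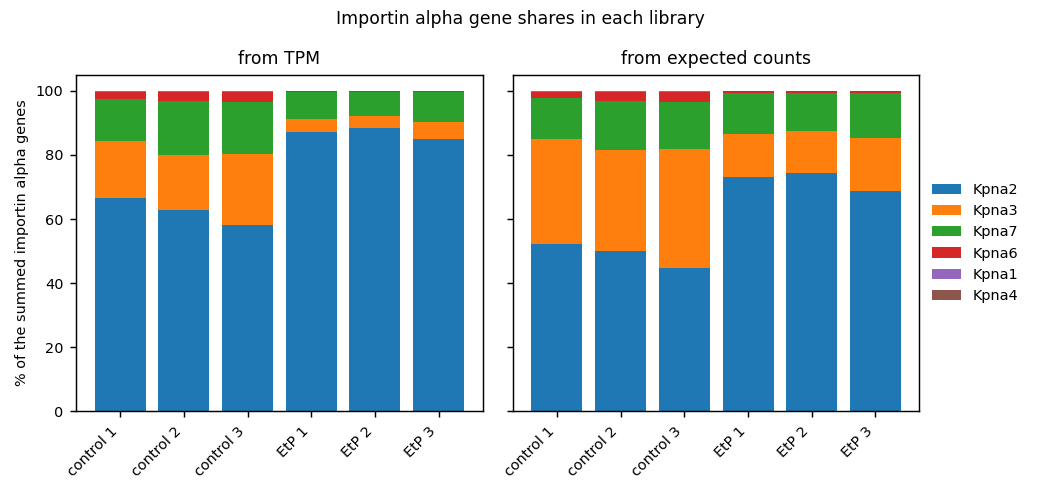
Stacked bars give the share of each importin alpha gene in the 6 libraries, as % of the summed TPM (left) and of the summed estimated counts (right). Kpna2 fills 58.3% to 66.6% of the TPM in control and 85.0% to 88.4% in EtP, and Kpna1 and Kpna4 are too small to see.

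Of the 11 receptors of the importin beta family, 2 were higher (18.2%) and 1 lower (9.09%), where 12.5% and 18.1% of all tested genes were. Tnpo1, which imports hnRNP proteins and is the most abundant of the family per length, stood at 214, 384 and 305 CPM in control and at 540, 476 and 714 CPM in EtP. Each EtP library was above every control library. The log2 fold change was 0.94 ± 0.26 (adjusted p = 0.0207), and the call was lost without EtP replicate 1 or 3, and with library size alone (0.21). Ipo7, an importer of ribosomal proteins and linker histone, stood at 25.7, 24.2 and 19.9 CPM in control and at 43.2, 51.2 and 34.9 CPM in EtP. Its groups did not overlap, with a log2 fold change of 0.89 ± 0.23 (adjusted p = 0.0159), and the call was lost without EtP replicate 1 or 2, and with library size alone (0.16). Tnpo3, which imports splicing factors of the SR family, stood at 6.84, 7.03 and 7.08 CPM in control and at 2.7, 1.88 and 5.22 CPM in EtP. EtP replicate 3 was closest to the controls but below them. The log2 fold change was -1.08 ± 0.37 (adjusted p = 0.0469), and the call was lost without any one library other than EtP replicate 3, under RLE scaling and with DESeq2. Tnpo3 shares exon sequence with Irf5 on the other strand.

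The other 8 import receptors did not pass the test. Kpnb1, importin beta itself, stood at 18.2, 28.2 and 24.9 CPM in control and at 25.8, 40.4 and 22.4 CPM in EtP, with overlapping groups (log2 fold change 0.31 ± 0.28). This carrier of importin alpha did not separate the groups, although Kpna2 and Kpna7 did. Its values in every library were chosen after they were seen. Ipo8, related to Ipo7, averaged 252 ± 28.2 CPM in control embryos and 241 ± 34.4 CPM in EtP embryos (-0.07 ± 0.21). Tnpo2, related to Tnpo1, gave 0.56 ± 0.50, with control libraries from 13.2 to 67.1 CPM. The histone and ribosomal protein importers Ipo4, Ipo5 and Ipo9 gave -0.26, -0.16 and -0.51. The import receptors Ipo11 and Ipo13 gave -0.46 and -0.43. Ipo9 was called lower without control replicate 1 (-0.76, adjusted p = 0.00702).

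Among 6 export receptors, 1 was higher (16.7%) and 1 lower (16.7%), where 12.5% and 18.1% of all tested genes were. Cse1l, which recycles importin alpha, stood at 86.2, 80.2 and 72.1 CPM in control and at 47.1, 41.1 and 50.8 CPM in EtP. Each EtP library was below each control library. The log2 fold change was -0.78 ± 0.21 (adjusted p = 0.0167), or 1.72-fold lower, and the call was lost without control replicate 2 or any one EtP replicate. Xpo5, the exporter of microRNA precursors, stood at 19.1, 26.9 and 27.3 CPM in control and at 40.8, 34.5 and 45.6 CPM in EtP. Its groups did not overlap (log2 fold change 0.72 ± 0.24, adjusted p = 0.04), the call was lost under upper-quartile scaling, without control replicate 2 or without any one EtP replicate, and the estimate was -0.01 with library size alone. Xpo1, the exporter of proteins with leucine-rich signals, gave -0.26 ± 0.29. Xpo4, Xpo6 and Xpo7 gave -0.08, -0.14 and -0.37, and none passed the test. Xpo7 was called lower without control replicate 1 (-0.53, adjusted p = 0.0283). It shares exon sequence on the same strand with Npm2, one of the egg and early embryo markers, so some of its fragments may belong to Npm2.

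No gene of the Ran cycle passed the edgeR test, none had an unadjusted p below 0.05, and DESeq2 and limma-voom called none. Of all tested genes, edgeR called 12.5% higher and 18.1% lower. Ran stood at 85.7, 53.7 and 49.8 CPM in control and at 52.4, 50.3 and 46.5 CPM in EtP. Only control replicate 1 stood apart, and the log2 fold change was -0.34 ± 0.25 (adjusted p = 0.326). Rangap1, which activates the GTPase of Ran, gave -0.30 ± 0.39, and its partner Ranbp1 gave 0.11 ± 0.30. With library size alone, Ran (-1.06, adjusted p = 0.00416) and Rangap1 (-1.03, adjusted p = 0.0443) were called lower.

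Summed TPM per role, a level per length that does not use TMM scaling, was dominated by importin alpha. The importin alpha genes summed to 1024, 1320 and 1288 TPM in control and to 4108, 3228 and 3907 TPM in EtP, a 3.1-fold difference. From counts without length the difference was 1.65-fold, and neither version overlapped. Export receptors summed to 126 ± 38.4 TPM in control and 70.6 ± 9.81 TPM in EtP, the Ran cycle to 63.5 ± 8.15 and 35.0 ± 0.269 TPM, and the membrane anchors to 1.30 ± 0.445 and 0.387 ± 0.180 TPM, each lower in EtP without overlap. These 4 roles gave an exact two-sided permutation p of 0.1, or 0.25 after adjustment over 10 roles, so none passed. The log2 ratio was -0.83 for export receptors, -0.86 for the Ran cycle and -1.75 for the membrane anchors. Counts scaled by library size alone gave a median of -0.92 over all tested genes, with 53.0% called lower. Whether the lower roles differ from that general shift was not tested. The outer ring summed to 410 ± 28.3 and 410 ± 62.3 TPM, the central channel to 140.0 to 337 TPM in control and 216 to 287 TPM in EtP, and the inner ring to 294 ± 39.3 and 400 ± 75.0 TPM. Cytoplasmic filaments summed to 252 ± 92.3 and 212 ± 35.2 TPM, the basket to 207 ± 44.5 and 181 ± 28.7 TPM and the import receptors to 569 ± 116 and 401 ± 67.6 TPM. Groups overlapped for these 6 roles. Without importin alpha the other 43 genes summed to 2171 ± 431 TPM in control and 1959 ± 300.0 TPM in EtP, with overlapping groups.

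**Figure D4:**
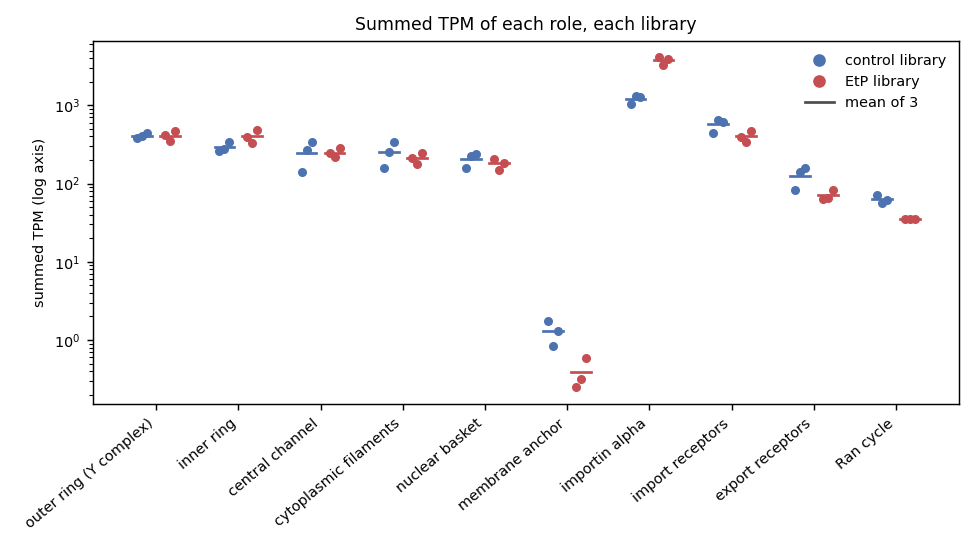
Summed TPM (log axis) of the genes of each role in each library, with horizontal lines at the mean of 3 libraries. Importin alpha lies at 1024 to 1320 TPM in control and 3228 to 4108 TPM in EtP, the Ran cycle, export receptors and membrane anchors lie lower in EtP without overlap, and the other 6 roles overlap.

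The deposited tables also give a length for each gene in each library, which varies where a gene has several transcripts and was equal in every library for all 2901 tested genes with 1 transcript. This measure was examined after the other values were seen. Of 48 genes with counts in every library, 9 were shorter (18.8%) and 5 longer (10.4%) in EtP without overlap between groups, against 1116 (10%) and 1224 (11%) of the 11112 tested genes with several transcripts, so the share of longer genes was near the background. A change of at least 20% was found for 3 that were shorter, Kpna2, Nup54 and Xpo6, and for 1 that was longer, Nup214, against 3.14% and 4.96% of the same 11112 genes. Kpna2 had lengths of 1752, 1787 and 1866 bases in control and of 1112, 1078 and 1162 bases in EtP, a mean change of -38.0%. GENCODE M21 lists a coding transcript of 2054 bases for Kpna2, a nonsense-mediated decay transcript of 1843 bases and 5 transcripts under 1000 bases, so the deposited lengths lie between these classes. Nup54 had 1821, 1681 and 2089 bases in control and 1153, 1137 and 1203 bases in EtP. Xpo6 had 2000, 2713 and 2514 bases in control and 1424, 1536 and 1568 bases in EtP. Both were thus shorter in all EtP libraries, with length changes of -37.5% and -37.3%. Nup214 had 3668, 4185 and 4562 bases in control and 5062, 4665 and 5391 bases in EtP, 21.8% longer. The basket gene Nup50 changed by -18.8%, and Kpna3 and Nup35 moved by 0.85% and 1.02%. Each gave an exact two-sided permutation p of 0.1, the smallest possible. TPM divides by this length, which bears on the TPM values of Kpna2 above, while CPM does not.

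**Figure D5:**
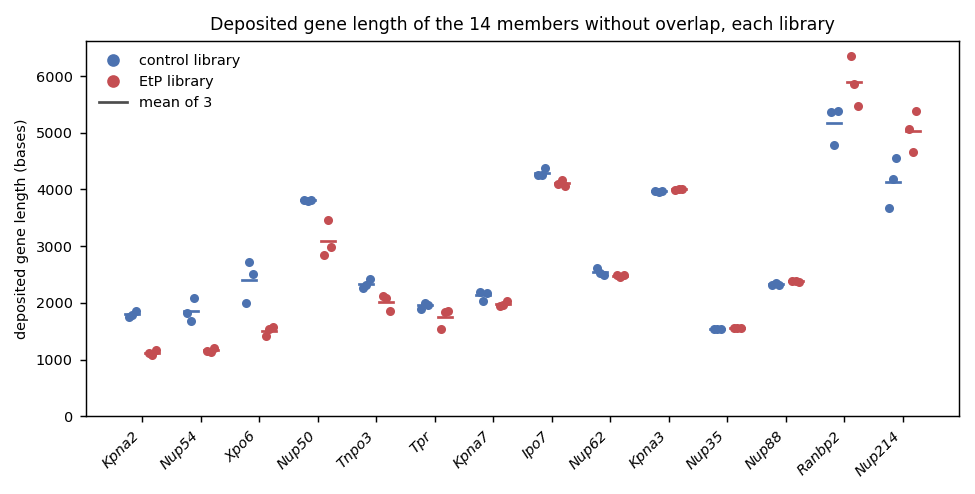
Deposited gene length in bases in each library for the 14 genes whose control and EtP libraries did not overlap, ordered by % change, with horizontal lines at the mean of 3 libraries. Kpna2 lies at 1752 to 1866 bases in control and 1078 to 1162 bases in EtP, and Nup214 at the right is longer in EtP.

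Of 63 other genes of the pathway, 59 could be tested, with 6 higher (10.2%) and 8 lower (13.6%) in EtP. Both shares lay below those of all tested genes, 12.5% higher and 18.1% lower. The median log2 fold change was -0.04, against -0.19 for all tested genes. None of 8 further pore subunits passed the edgeR test (Ndc1, Pom121, Seh1l, Sec13, Aaas, Rae1, Gle1 and Ahctf1). Seh1l alone had an unadjusted p below 0.05, and was called by DESeq2 but not by limma-voom. Among Ran regulators and other receptors 3 of 11 were higher (27.3%) and 4 lower (36.4%). Nmd3, which exports the large ribosomal subunit, rose from 54.9 ± 10.3 CPM to 169 ± 8.12 CPM (log2 fold change 1.62 ± 0.22, adjusted p = 0.000423). Phax, which exports small nuclear RNA, rose from 16.5 ± 4.57 to 51.2 ± 10.5 CPM (1.64 ± 0.28, adjusted p = 0.0016). The subunits of the nuclear cap-binding complex went opposite ways. Ncbp1 fell from 9.58 ± 1.24 to 2.25 ± 0.658 CPM (-2.10 ± 0.32, adjusted p = 0.000897), and Ncbp2 rose from 99.4 ± 9.16 to 219 ± 21.1 CPM (1.14 ± 0.20, adjusted p = 0.00205). Nutf2, which carries Ran into the nucleus, fell from 112 ± 28.2 to 58.8 ± 2.16 CPM (-0.93, adjusted p = 0.0122), and Rangrf (-1.43) and Ranbp6 (-2.39) also fell. Ncbp2, Nutf2, Rangrf, Ranbp6, Seh1l, Sec13 and Ahctf1 were chosen after their values were seen.

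Among 20 genes of mRNA export, 1 was higher and 2 lower. Nxf1, the main mRNA export receptor, rose from 26.6 ± 1.26 to 46.8 ± 1.73 CPM (log2 fold change 0.81 ± 0.20, adjusted p = 0.0122), and its estimate was 0.08 with library size alone. The adaptors Alyref (-2.13 ± 0.43, adjusted p = 0.00454) and Sarnp (-2.17 ± 0.42, adjusted p = 0.00328) fell. Of 12 tested genes of the envelope and lamina, Syne2 was higher (0.89, adjusted p = 0.0434), and Emd (-1.09, adjusted p = 0.012) and Tor1a (-0.61, adjusted p = 0.0338) were lower. These calls make up 8.33% higher and 16.7% lower, also below the shares of all tested genes. With library size alone, 2 of the 59 pathway genes were higher and 30 lower, where 3.79% of all tested genes were higher and 53.0% lower. Without control replicate 1, 16 were higher and 13 lower, and the share of all tested genes called in that refit is not given here.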

How the data were processed

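Polyadenylated RNA of whole embryos was amplified with oligo-dT priming (Smart-seq2) and sequenced as paired reads on an Illumina instrument, per the labels' protocols. The submitters' processing notes name cutadapt 1.16, STAR and the build mm10. The counting program is not given in the sources used here, and no strand was marked, so overlapping genes on opposite strands cannot be separated. The deposited tables hold the authors' expected counts, estimated fragments of each gene in which ambiguous ones are shared out. Between 10.6% and 16.0% of rows were not whole within 0.005, 25 of the 49 genes had whole values in all 6 libraries, and rounding preceded every count test. The deposited TPM values are the authors' own scaling of each gene by its length and of each library by its depth. The deposited length column, in bases, was used as given. Sequences came from RefSeq promoters and positions from GENCODE M21, which held all 49 IDs, 2 of them (Ipo8 and Ipo11) in another version. In all, 18 of the 49 share exons with another gene.

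EtP was compared with control by edgeR 4.0.16 in R 4.3.3 over all 55549 rows, with default filterByExpr. TMM scaling gave factors of 1.198 to 1.385 in control and 0.7378 to 0.833 in EtP. Robust quasi-likelihood fits held a group term, and p-values were adjusted by Benjamini-Hochberg over all tested genes, at 0.05. CPM uses TMM-scaled library sizes. SE was taken as the size of the log2 fold change over the root of its F statistic. Shares, sums and lengths were compared by exact two-sided permutation tests (scipy 1.17.1). For a group at 0, 3 counts over its libraries served as the upper limit. Also tried were scaling by RLE, by upper quartile or by library size, no filter or at least 10 CPM in 3 libraries, DESeq2 1.42.0, limma-voom (limma 3.58.1), a replicate block, counts without length, and leaving out each library. Values in every library are given for genes that passed the test with a mean of at least 5 CPM and for the most abundant gene per length of each role, and up to 3 genes are named per list of other pathway genes, unless said otherwise. One gene that this rule selects is not reported here. The genes, lists and tests were chosen with earlier results of these data known. Tested on simulated data for EtP against control over 14037 genes, edgeR gave these shares: 83% of 106 genes changed 4-fold and 14.1% of 85 changed 2-fold were called, none in the wrong direction, and 7.41% of calls were unchanged genes. Figures were drawn with matplotlib 3.10.9.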

Additional observations from a re-analysis of the deposited data

How the results depend on the processing

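Of the 14 pore and transport genes that passed the test, 8 kept their call when any 1 library was left out (Kpna1, Kpna2, Kpna4, Kpna7, Nup107, Nup35, Nup62cl and Nup88). The other 6 (Cse1l, Ipo7, Nup85, Tnpo1, Tnpo3 and Xpo5) lost it without at least 1 library, while keeping their direction. Leaving out 1 library gave 5 to 14 of the 49 genes higher and 3 to 7 lower. Their median log2 fold change was then 0.09 to 0.23, against -0.23 to -0.1 for all tested genes. Of the other pathway genes, 3 to 16 were then higher and 4 to 13 lower. The highest counts came without control replicate 1. The shares of all tested genes called in these refits are not given here, so the counts have no background beside them. The simulation called few 2-fold changes, but it differed from the data. It changed 85 genes 2-fold and 106 genes 4-fold among 14037, without a shift in RNA composition. In the data, 12.5% of tested genes were called higher and 18.1% lower, which makes the adjusted threshold less strict. The simulated share therefore does not carry over, and how many 2-fold changes were missed here is not known.

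With library size alone, 2 of the 49 genes were higher and 21 lower (median -0.61), and 2 other pathway genes were higher and 30 lower. Of all tested genes, 3.79% were higher and 53.0% lower. This scaling moved the median of all tested genes by -0.73, and 18 of the 27 positive estimates turned negative; among them, Xpo5 (-0.01) and Nup85 (-0.02) had been called higher, and Tpr (-0.66) was now called lower. A filter of at least 10 CPM in 3 libraries left 5 higher and 1 lower (median 0.02), with fewer genes tested, and lost the calls of Xpo5, Ipo7, Tnpo1 and Nup85. The median was 0.26 under RLE, 0.09 under upper-quartile scaling, 0.2 without a filter, 0.29 with DESeq2 and 0.21 with limma-voom. Over all genes in each fit, the medians were -0.09, -0.26, -0.79, -0.33 and -0.15 in the same order. RLE scaling and DESeq2 each lost the call of Tnpo3, and upper-quartile scaling that of Xpo5.

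From counts without length, the change in share (EtP minus control, in percentage points) was -0.33 for Kpna1, -19.4 for Kpna3, -0.08 for Kpna4, -1.82 for Kpna6 and -1.57 for Kpna7, and the log2 ratio of the summed level was 0.72 for importin alpha (1.63 from TPM) and 0.17 for all 49 genes (0.75 from TPM). The replicate numbers are shared between groups. Same-numbered libraries correlated at 0.184, 0.00518 and 0.363 in their deviations from the group means, and differently numbered ones at -0.305 to 0.152. Pairing is not stated in the labels and was not used in the main fit. A fit with a replicate block gave 11 higher and 6 lower genes (median 0.21, against -0.16 for all tested genes) and kept all 14 calls. The shares of all tested genes called in that fit are not given here. The causes of these shifts were not tested.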
